A study of Rattus norvegicus with 20 samples.

Results

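Heterotrimeric G protein subunits and regulators of G protein signalling (RGS proteins) were followed in the nucleus accumbens shell, the part of the ventral striatum tied most closely to reward, of rats that drank ethanol or water. The members were the genes whose array symbol begins with Gna, Gnb or Gng followed by a digit or by i, o, q, s, l, t or z, or with Rgs followed by a digit. The rule found 49 genes with 74 probe sets, of 14217 genes on the array, and each gene was represented by its brightest probe set on average. Of the 49 genes, 40 lay above the filter on dim probe sets and were tested. The other 9, with means below 6.65 on the log2 scale, were the transducin and gustducin genes Gnat1, Gnat2, Gnat3, Gngt1 and Gngt2, known from photoreceptors and taste cells, and Gna14, Rgs1, Rgs18 and Rgs22. The rule also took in Gnb1l, a WD-repeat protein that is no G protein subunit, and Rgs7bp, a membrane anchor of RGS proteins. Another 2 probe sets name both Gnai1 and Gnai3 and were left out, and Gna13 and Gng4 were not analysed here.

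All animals were adolescent alcohol-preferring (P) rats, a line selectively bred for voluntary ethanol drinking. The ethanol group (n = 10) drank in binge-like sessions with 15 and 30% ethanol on offer, and the water group (n = 10) had water alone. Each animal gave 1 single-colour array, and values are on the log2 scale, where a difference of 1 is a doubling. The question was whether transcripts of the G protein machinery differed between drinking and water animals. Sex and the interval between the last drinking session and tissue collection were not analysed here.

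A G protein couples a receptor to enzymes and channels. The activated receptor makes the alpha subunit exchange GDP for GTP, after which alpha and the beta-gamma pair act on separate targets, and RGS proteins speed up GTP hydrolysis and so end the signal. In medium spiny neurons, the main cells of the striatum, dopamine D1 receptors and the adenosine receptor encoded by Adora2a raise cAMP through the alpha subunit encoded by Gnal, paired with the gamma subunit encoded by Gng7 and acting on the cyclase Adcy5. Dopamine D2 receptors work through inhibitory alpha subunits, which the protein of Rgs9 switches off in a complex with Gnb5 and the anchor Rgs7bp.

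The 250 bases before the RefSeq start site (build GRCr8) are shown for Rgs9, Rgs2, Gnb5, Gng7 and Gnao1. Rgs9, Rgs2, Gnb5 and Gng7 were among the 7 members that were lowest in the same 3 water animals. Gnao1 was shown because its window holds the full cAMP response element. The windows, each read 5′ to 3′ on the gene's own strand, are chr10:94770388-94770637 (minus strand) for Rgs9, chr13:58352667-58352916 (minus) for Rgs2, chr8:84956379-84956628 (plus) for Gnb5, chr7:9365139-9365388 (plus) for Gng7 and chr19:11198438-11198687 (minus) for Gnao1. Capitals mark the core of the cAMP response element, TGACG or its reverse CGTCA, and in Gnao1 also the full element TGACGTCA, in which both cores overlap.
Rgs9: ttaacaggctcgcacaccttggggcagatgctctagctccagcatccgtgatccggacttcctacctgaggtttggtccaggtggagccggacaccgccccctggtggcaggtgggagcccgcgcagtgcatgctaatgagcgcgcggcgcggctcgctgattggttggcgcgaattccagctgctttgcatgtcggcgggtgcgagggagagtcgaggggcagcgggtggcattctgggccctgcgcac
Rgs2: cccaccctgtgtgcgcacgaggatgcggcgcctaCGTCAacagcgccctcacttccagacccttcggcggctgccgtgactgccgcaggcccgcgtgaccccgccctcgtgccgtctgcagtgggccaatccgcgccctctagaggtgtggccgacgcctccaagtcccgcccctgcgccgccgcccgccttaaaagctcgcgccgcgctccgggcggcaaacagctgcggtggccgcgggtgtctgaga
Gnb5: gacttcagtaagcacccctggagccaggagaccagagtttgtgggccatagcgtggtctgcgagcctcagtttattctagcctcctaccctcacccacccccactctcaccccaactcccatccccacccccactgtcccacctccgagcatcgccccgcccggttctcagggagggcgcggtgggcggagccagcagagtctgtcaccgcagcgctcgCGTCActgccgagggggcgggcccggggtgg
Gng7: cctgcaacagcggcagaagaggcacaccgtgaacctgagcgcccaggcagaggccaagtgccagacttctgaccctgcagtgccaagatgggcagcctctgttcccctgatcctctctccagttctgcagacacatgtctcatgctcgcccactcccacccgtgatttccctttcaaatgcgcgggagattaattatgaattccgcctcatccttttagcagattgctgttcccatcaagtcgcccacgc
Gnao1: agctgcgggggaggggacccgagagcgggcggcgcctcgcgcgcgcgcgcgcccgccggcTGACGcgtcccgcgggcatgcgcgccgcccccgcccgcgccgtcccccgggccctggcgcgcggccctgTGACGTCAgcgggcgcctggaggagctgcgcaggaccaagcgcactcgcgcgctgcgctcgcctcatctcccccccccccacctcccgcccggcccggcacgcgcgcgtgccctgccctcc
The core begins 216 bases before the start in Rgs2 and 31 bases before it in Gnb5, and the letters do not occur in the Rgs9 and Gng7 windows. Nor do they occur in the windows of Gnal, Rgs8 and Gng10, the other members lowest in those 3 animals, which are not shown. In Gnao1 a core begins at 190 bases, and the full element at 121 bases, before the start. A core on either strand was found in 8 of 37 windows of 35 tested members (21.6%), against 6097 of 33469 windows in the whole RefSeq table (18.2%). The full element was found in 1 of the 37 windows (2.7%), against 531 of the 33469 (1.59%). These matches describe the letters and are not measured binding sites.

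No member passed the test between ethanol and water. Of 40 tested members, 0 rose and 0 fell at an adjusted p of 0.05 (limma, Benjamini-Hochberg over 20695 probe sets), where 10 of all 10746 tested genes, 0.0931%, were called (0.0838% higher and 0.00931% lower in ethanol). At an unadjusted p of 0.05 the count was 2 of 40 above 0, Rgs8 and Rgs9, and 0 of 40 below 0, where all genes gave 5.24% and 4.77%. The difference, ethanol minus water, ranged from -0.23 for Gng2 to 0.35 for Rgs9, with a median of 0.02 and 24 of 40 above 0. The median over all tested genes was 0.0002, with 50.1% above 0. In none of the 40 members did the value ranges of the groups separate, against 0.0651% of all genes.

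**Figure D1:**
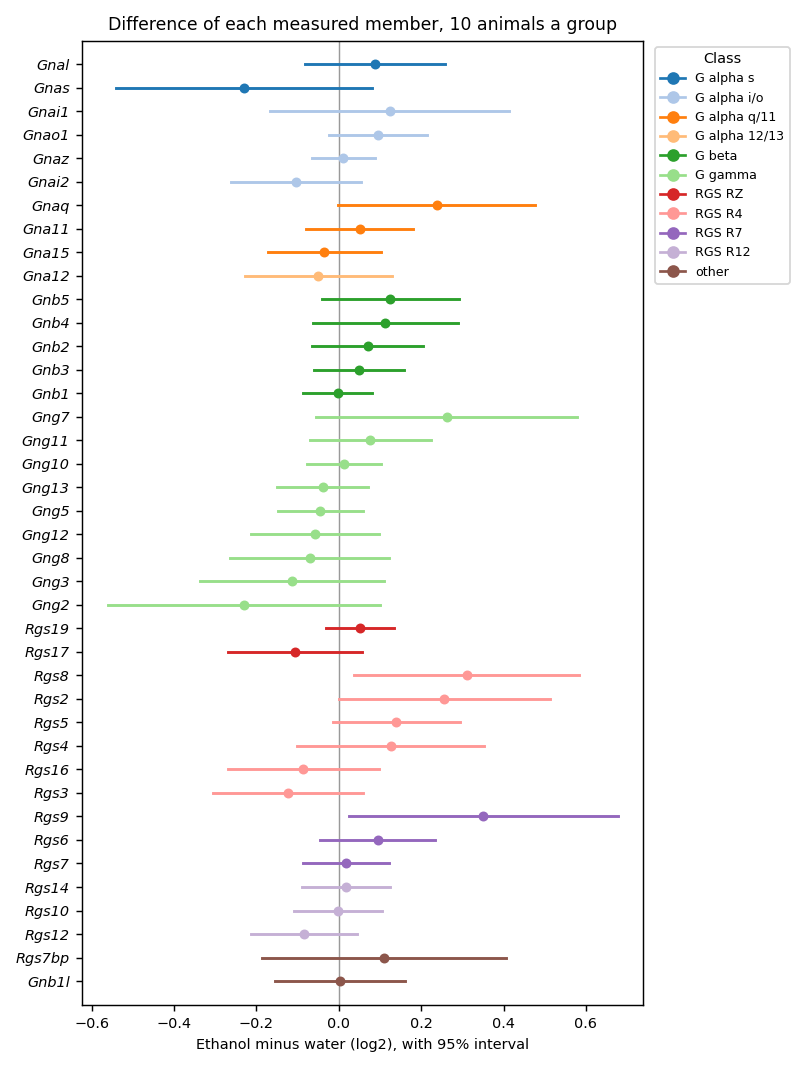
Difference in log2 value, ethanol minus water, for each of the 40 tested members, ordered by class, with the 95% interval of the limma fit (10 animals a group). Intervals of 2 members, Rgs8 and Rgs9, lie wholly above 0 before adjustment, and no adjusted p is below 0.3775.

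Before the values of single genes, 3 water arrays need naming, because several members turned on them. Of 20 listed medium spiny neuron markers, 18 were on the array and all 18 were tested, and 0 were called. Their mean was 12.01, 12.28 and 11.74 in water animals 17, 19 and 20, below the range of 12.53 to 13.15 in the other 17 animals. Ethanol animals had a marker mean of 12.94 ± 0.20 (SD, n = 10; 12.53 to 13.14) and water animals 12.69 ± 0.49 (SD, n = 10; 11.74 to 13.15). Defining markers of these neurons were bright, with Drd1 at 12.52, 12.90 and 12.12 in those 3 animals and at 13.13 to 13.72 in the others. The mean of 4 tested septum, pallidum and basal forebrain markers of 8 listed was 9.20, 9.05 and 9.45 in the 3 animals. The other 17 animals spanned 8.15 to 8.75. Slc17a6 was above the others in all 3, at 9.60, 9.22 and 9.98 against 6.33 to 8.30. Nkx2-1 was above the others in water 17 and 20 only, and Trh in water 19 and 20 only. Nts lay inside the others' range in all 3. The mean of 4 tested GABAergic interneuron markers of 8 listed was 10.86, 10.79 and 11.33, above 10.08 to 10.66. Calb2 and Pvalb were above the others in all 3 animals, Sst in water 20, and Npy in none of them. The mean of 11 tested oligodendrocyte markers of 12 listed was 12.20, 12.02 and 12.03, within or just above the 11.22 to 12.17 of the others. None of the 5 cortical excitatory markers on the array lay above the filter. In tissue of mixed cells, fewer cells of a type and less RNA per cell cannot be told apart, and the part of tissue makeup in the members' differences was not tested.

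Gnal and Gnas encode the stimulatory alpha subunits that activate adenylyl cyclase, Gnal in striatal and olfactory neurons and Gnas in most cells. Gnal ran from 11.94 to 12.13 in ethanol animals (median 12.07) and from 11.49 to 12.23 in water animals (median 12.09). Ethanol values formed a narrow band inside the water range, whose low end was set by water 17, 19 and 20 at 11.56, 11.75 and 11.49. The Gnal difference was 0.09 (SE 0.08, adjusted p = 0.658) and was -0.07 without those 3 animals. The other tested Gnal probe set gave 0.15, and 0.007 without them. Gnas ran from 13.42 to 14.15 in ethanol animals (median 13.78) and from 13.59 to 14.84 in water animals (median 13.73). The group medians nearly coincided, and the same 3 water animals were here the highest of all 20, at 14.60, 14.34 and 14.84. The Gnas difference was -0.23 (95% interval -0.54 to 0.08, adjusted p = 0.528) and was 0.04 without them. The Gnas locus is imprinted and has several promoters, and its other probe sets gave -0.33 and -0.38. The dimmest, at -0.38, had an interval wholly below 0 before adjustment (95% interval -0.66 to -0.11) and was not called (limma, adjusted p = 0.3075). It was still at -0.18 without the 3 animals.

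Among the inhibitory class, which lowers cAMP and whose beta-gamma pairs open potassium channels, 3 of 4 tested members had a difference above 0, with a median of 0.05. Gnao1, the major alpha subunit of brain membranes, was at 12.10 ± 0.11 in ethanol and 12.01 ± 0.14 in water (SD, n = 10 each), a difference of 0.10 with an adjusted p of 0.49. Gnaz, whose product resists pertussis toxin, differed by 0.01 and Gnai2 by -0.10 (adjusted p = 0.915 and 0.574). Gnai2 differed by -0.04 without water 20 alone and by -0.01 without water 17, 19 and 20. Gnai1 differed by 0.12 (adjusted p = 0.719), by 0.20 without those 3 animals and by 0.02 without water 18 alone. With the 3′ minus 5′ value of the Actb and Gapdh control probe sets as a covariate, a measure that grows as RNA degrades, Gnai1 differed by -0.14. That measure was 1.21 ± 0.12 in ethanol and 1.40 ± 0.22 in water animals (SD, n = 10 each).

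Gnaq and Gna11 encode the alpha subunits that activate phospholipase C beta, downstream of receptors such as the muscarinic M1 and serotonin 2A types. Gnaq ran from 7.08 to 7.83 in ethanol animals (median 7.28) and from 6.65 to 7.57 in water animals (median 7.09). The groups overlapped widely, with the 3 lowest values in water animals 12, 13 and 14 and the 2 highest in ethanol animals 9 and 10. The Gnaq difference was 0.24 (95% interval -0.001 to 0.48, adjusted p = 0.413). Leaving out water 17, 19 and 20 gave 0.27, and the 3′ minus 5′ covariate gave 0.04. Gna11 differed by 0.05, and Gna12, of the remaining alpha subunit class, by -0.05. Without water 17, 19 and 20 both turned sign, to -0.002 and 0.07, and those animals had Gna12 at 12.32, 12.32 and 12.35, above the 12.12 of the highest other water animal. The other tested probe set of Gna12 gave 0.08, the opposite sign.

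Of the 5 beta subunit genes, 4 had a difference above 0, with a median of 0.07. Gnb5, the divergent beta subunit that pairs with RGS proteins of the R7 family in place of a gamma subunit, ran from 12.69 to 12.92 in ethanol (median 12.80). In water animals it ran from 12.18 to 12.86 (median 12.82), and the low end was again water 17, 19 and 20, at 12.31, 12.49 and 12.18. The Gnb5 difference was 0.13 (SE 0.08, adjusted p = 0.519). Without the 3 animals it was -0.03, and the SD of the 7 remaining water animals was 0.02 against 0.26 with them. Gnb4 and Gnb2, conventional beta subunits, differed by 0.11 and 0.07, and by 0.05 and 0.003 without the 3. Leaving out water 17 alone gave 0.02 for Gnb2. Gnb1, a partner of many gamma subunits in brain, differed by -0.002, and its other probe sets gave 0.04 and 0.11.

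The gamma subunits, which tether the beta-gamma pair to the membrane, split by member: 3 of 9 tested had a difference above 0. Gng7, the striatal partner of Gnal, ran from 11.98 to 12.46 in ethanol (median 12.26) and from 10.93 to 12.51 in water (median 12.19). Water 17, 19 and 20, at 10.93, 11.57 and 11.41, lay below every other animal, and of the remaining 7 water animals 6 lay inside the ethanol range and water 18, at 12.51, just above it. The Gng7 difference was 0.26 (95% interval -0.05 to 0.58, adjusted p = 0.481), and -0.03 without the 3. Gng2, a gamma subunit found in many tissues including brain, ran from 8.68 to 9.37 in ethanol (median 8.98) and from 8.67 to 10.26 in water (median 9.10). Here the same animals were the highest of all 20, at 9.62, 9.73 and 10.26. The Gng2 difference was -0.23 (95% interval -0.56 to 0.10, adjusted p = 0.549), and 0.04 without them. Gng3, a neuronal gamma subunit, was also highest in those animals, at 12.31, 12.25 and 13.01, and differed by -0.11 with all animals, by -0.02 without water 20 alone and by 0.05 without all 3. Gng13, known from taste cells and retina, differed by -0.04.

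**Figure D2:**
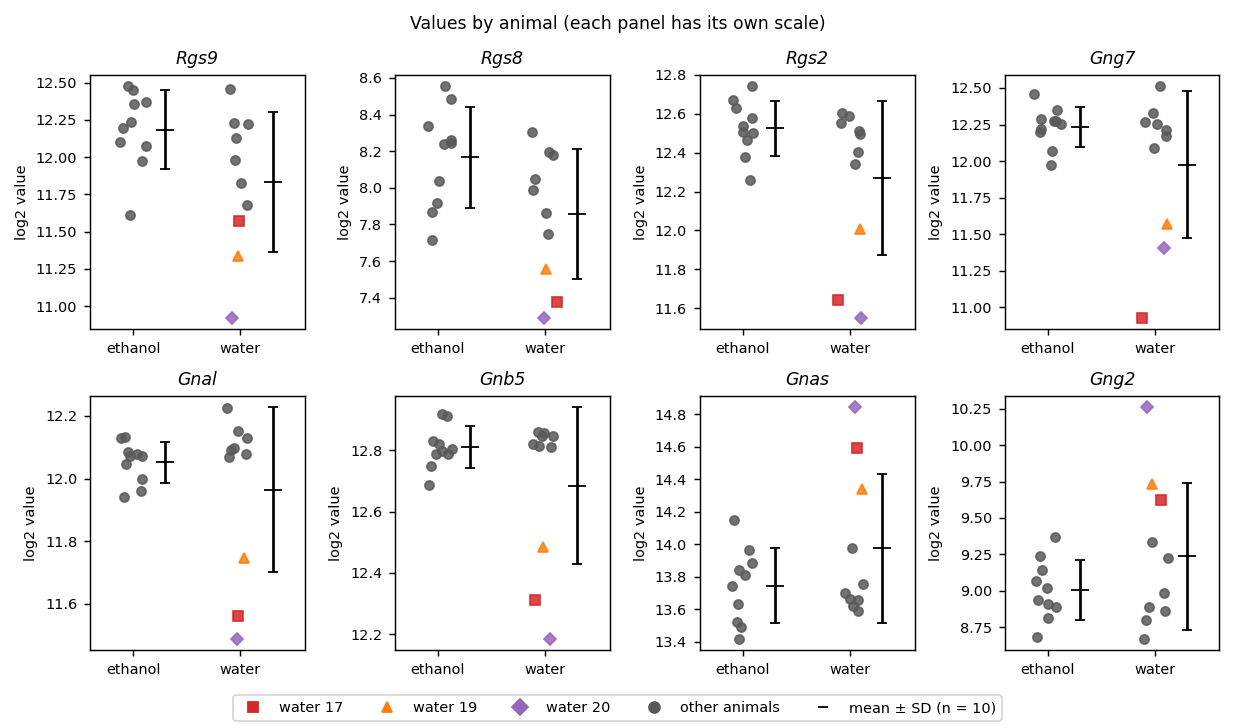
Log2 values of 8 members in each animal (points), with the mean ± SD of each group (n = 10); every panel has its own scale. Water 17, 19 and 20 are the lowest of 20 animals for Rgs9, Rgs8, Rgs2, Gng7, Gnal and Gnb5 and the highest for Gnas and Gng2.

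The R7 family RGS proteins act on inhibitory alpha subunits together with Gnb5. Rgs9, whose long splice form is characteristic of striatal neurons, ran from 11.61 to 12.48 in ethanol animals (median 12.22) and from 10.92 to 12.46 in water animals (median 11.90). The lowest 3 values were water 20, 19 and 17, at 10.92, 11.33 and 11.57, and the next was ethanol 8 at 11.61, the ethanol animal with the lowest medium spiny neuron marker mean (12.53). Rgs9 had the largest difference of the 40 members, 0.35 (95% interval 0.03 to 0.68, 1.28-fold), and did not pass the test (adjusted p = 0.394). Without water 17, 19 and 20 it was 0.11. Its other tested probe set, a dimmer one, gave 0.15, and -0.18 without them. Rgs7bp, which anchors these complexes at the membrane, ran from 11.28 to 12.21 in ethanol (median 11.88) and from 10.96 to 12.11 in water (median 11.90), a difference of 0.11 (adjusted p = 0.755). It was -0.11 without the 3. Rgs7, the family member with the broadest neuronal expression, differed by 0.02 (SE 0.05, adjusted p = 0.90).

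The R4 family, small RGS proteins that act on inhibitory and Gq-class alpha subunits, had a median difference of 0.13 over 6 tested members, 4 of them above 0. Rgs8 ran from 7.72 to 8.56 in ethanol (median 8.24) and from 7.29 to 8.31 in water (median 7.93). Water 17, 19 and 20, at 7.38, 7.56 and 7.29, were the lowest of 20. The Rgs8 difference was 0.31 (95% interval 0.04 to 0.58, 1.24-fold, adjusted p = 0.378), and 0.12 without them. Rgs2, an activity-induced gene whose product prefers Gq-class alpha subunits, ran from 12.26 to 12.74 in ethanol (median 12.52) and from 11.55 to 12.61 in water (median 12.45). Water 17, 19 and 20 lay apart from all others at 11.64, 12.01 and 11.55. The Rgs2 difference was 0.26 (95% interval -0.001 to 0.51, adjusted p = 0.412), and 0.03 without the 3. The second Rgs2 probe set gave 0.32, and 0.06 without them. Its interval with all animals lay wholly above 0 before adjustment (95% interval 0.01 to 0.62), and it was not called (limma, adjusted p = 0.4035).

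Rgs4 and Rgs5 differed in another way. Rgs4, a regulator in cortical and striatal neurons, ran from 10.41 to 11.42 in ethanol (median 11.12) and from 10.68 to 11.36 in water (median 10.98). Ethanol 8 was the lowest of all 20 for Rgs4, and water 17, 19 and 20 lay inside the range of the others. The Rgs4 difference was 0.13 (adjusted p = 0.635), and 0.16 without those 3 animals. The other tested Rgs4 probe set gave 0.19 (limma, adjusted p = 0.402), and 0.18 without them. Rgs5, a marker of pericytes in brain vessels, ran from 9.57 to 10.19 in ethanol (median 9.94) and from 9.54 to 10.13 in water (median 9.84). Both ends of the water range were set by animals that stood apart, water 17 at the low end and water 20 at the high end. The other 7 water animals, without water 19 as well, spanned 9.63 to 9.93, and 6 of 10 ethanol animals lay above them. The Rgs5 difference was 0.14 (SE 0.07, adjusted p = 0.452), 0.15 without the 3, and 0.03 with the 3′ minus 5′ covariate. With that covariate Rgs4 differed by 0.24, Rgs9 by 0.44 and Rgs8 by 0.38, all further from 0 than without it and none called. Rgs16 and Rgs3 had negative differences, -0.09 and -0.12, and were highest of 20 in water 17, 19 and 20. Without those animals they differed by 0.05 and 0.02.

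The remaining RGS families gave small differences. Rgs17, an RZ family protein that acts on the Gnaz product, differed by -0.11 (adjusted p = 0.576), and its 5 probe sets all gave negative values, from -0.02 to -0.19. The probe set at -0.19 had an interval wholly below 0 before adjustment (95% interval -0.34 to -0.05). It was not called (limma, adjusted p = 0.3268). Without water 17, 19 and 20 that probe set was at -0.14, and the brightest Rgs17 probe set was at -0.045. In the R12 family, Rgs10, known from microglia and neurons, differed by -0.002, Rgs12 by -0.08 and Rgs14, known as a brake on plasticity in the hippocampal CA2 field, by 0.02 (adjusted p = 0.988, 0.573 and 0.907). Of 13 members with more than 1 tested probe set, 10 gave 1 sign throughout, and Gna12, Gnb1 and Rgs3 did not.

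Members varied more between water animals than between ethanol animals, as did most genes. The SD was larger in water than in ethanol for 32 of 40 (80%), beside 81.2% of all genes, and for 19 of 40 (47.5%) without water 17, 19 and 20, beside 62.2% of all genes. The median SD of the members was 0.134 in ethanol, 0.209 in water, and 0.131 in water without those 3. For 7 members (17.5%) these were the 3 lowest of the 20 animals, beside 5.16% of all genes: Gnal, Gnb5, Gng7, Gng10, Rgs2, Rgs8 and Rgs9. For 5 members (12.5%) they were the 3 highest, beside 7.64%: Gnas, Gng2, Gng3, Rgs3 and Rgs16. Leaving the 3 out changed the sign of the difference in 15 of 40 members (37.5%), beside 28% of all genes, and took the median size of the difference from 0.0868 to 0.0437. Over all genes that size went from 0.0511 to 0.0446. No member was called without them, where 0.130% of genes were, and 1 of 40, Rgs5, had an unadjusted p under 0.05, beside 8.45% of all genes. With the mean of the medium spiny neuron markers as a covariate, Rgs9 differed by 0.12, Rgs8 by 0.12, Rgs2 by 0.06, Gng7 by 0.04, Gnas by 0.002 and Gng2 by 0.01, while Gnaq differed by 0.26 and Gnai1 by 0.21.

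**Figure D3:**
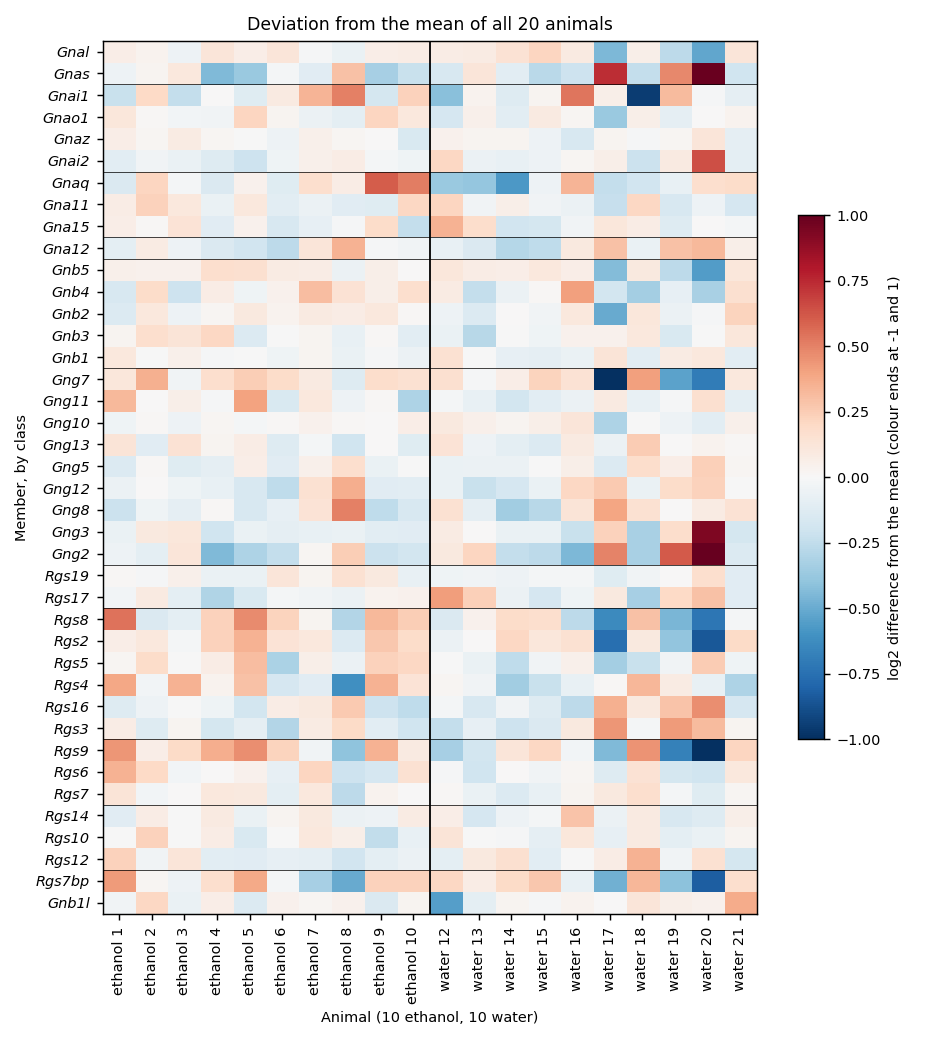
Deviation of each tested member (rows, by class) from its mean over the 20 animals (columns, 10 ethanol then 10 water), in log2 units. The columns of water 17, 19 and 20 show low Gnal, Gnb5, Gng7, Rgs8, Rgs2 and Rgs9 beside high Gnas and Gng2.

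**Figure D4:**
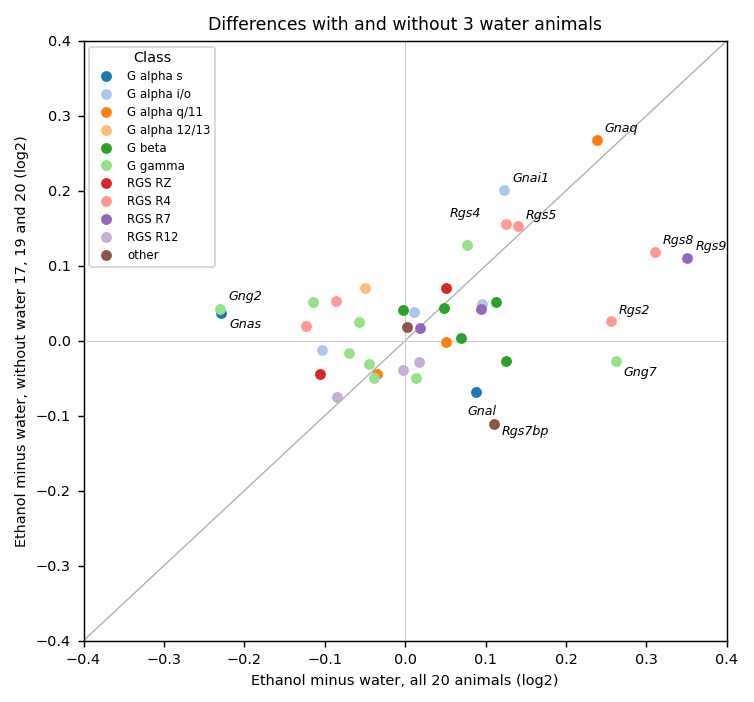
Difference of each tested member (log2, ethanol minus water) with all 20 animals (x axis) against that without water 17, 19 and 20 (y axis), coloured by class; the diagonal marks equal values. Rgs9, Rgs8, Rgs2 and Gng7 lie far below the diagonal and Gnas and Gng2 above it near 0, while Gnaq, Gnai1, Rgs4 and Rgs5 lie above it.

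Partners known to form complexes were compared across animals within each group, in 12 relations, with permutation p-values adjusted over the 12 and without water 17, 19 and 20. Rgs9 and its anchor Rgs7bp varied together over the 10 ethanol animals, with a Pearson r of 0.898 (permutation p = 0.00042, adjusted p = 0.00504) and a Spearman rank correlation of 0.794 (permutation p = 0.00868, adjusted p = 0.104). Without the 2 animals farthest from the Rgs9 median r was 0.774, and in the 7 water animals it was 0.521 (exact permutation p = 0.231, adjusted p = 0.461). The medium spiny neuron marker mean moved with both genes: ethanol 8 and then ethanol 7 were lowest in the marker mean (12.53 and 12.74), in Rgs9 (11.61 and 11.98) and in Rgs7bp (11.28 and 11.45). Ethanol 8 was also the lowest ethanol animal for Gnal (11.94), Gng7 (11.98), Gnb5 (12.69) and Rgs7 (10.75), which enter the other relations. The part of the marker level in any of the relations was not tested. Rgs9 and Gnb5 had an r of 0.755 in ethanol (permutation p = 0.0127, adjusted p = 0.0534), which was 0.374 without the 2 farthest animals, and 0.118 in water. Rgs7 and Gnb5 had an r of 0.704 in ethanol (permutation p = 0.0258, adjusted p = 0.063) and 0.406 in water. Gnal had an r in ethanol of 0.689 with Gng7 (permutation p = 0.0262, adjusted p = 0.063) and 0.731 with Adcy5 (permutation p = 0.0133, adjusted p = 0.0534). With Gnb1 its r in ethanol was -0.0782 (permutation p = 0.831, adjusted p = 0.831). In water the Gnal values were -0.101 with Gng7, -0.16 with Adcy5 and -0.41 with Gnb1. For Gng7 and Adcy5 the ethanol values were 0.0209 and 0.319 without the 2 animals farthest from the Gnal median. Leaving those animals out also narrows the range of Gnal, so the lower r does not show that the relations rest on them. The Spearman values of Gnal in ethanol were 0.491 with Gng7, 0.539 with Adcy5 and -0.212 with Gnb1 (permutation, adjusted p = 0.374, 0.346 and 0.793). For Gnb5 they were 0.661 with Rgs9 and 0.539 with Rgs7 (permutation, adjusted p = 0.26 and 0.346). No difference in r between the groups was tested.

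Genes on either side of the G proteins gave no call. Of 49 listed effectors and other regulators, such as adenylyl cyclases, phospholipase C and protein kinase A subunits, 35 were tested, 0 passed, and 16 had a difference above 0 (median -0.01). The smallest p belonged to Gpsm2, which binds inhibitory alpha subunits in their GDP form, at 8.54 ± 0.12 in ethanol and 8.34 ± 0.22 in water (SD, n = 10 each; adjusted p = 0.327). Prkar2a and Prkar2b, regulatory subunits of protein kinase A, differed by -0.12 and 0.19 (adjusted p = 0.379 and 0.452). In water 17, 19 and 20 Prkar2a was at 11.20, 11.21 and 11.27, above the 10.80 to 11.09 of the others, and Prkar2b at 12.70, 13.01 and 12.47, below the 13.13 to 13.48 of the others. Gpsm2 was at 7.95 in water 17 and 7.97 in water 20, below the 8.24 to 8.73 of the animals other than the 3. Of 41 listed receptors 29 were tested, 0 passed and 18 had a difference above 0, with a median of 0.09, and next to 0 without water 17, 19 and 20. Adra2c, the alpha-2C adrenergic receptor that couples to inhibitory G proteins, was at 9.62 ± 0.30 in ethanol and 9.08 ± 0.62 in water, a difference of 0.54 (adjusted p = 0.327). Its value in water 17 and 20 was 7.84 and 8.54, below the 8.63 to 10.23 of the animals other than the 3. Htr2a, coupled to Gq-class alpha subunits, and Htr1d, coupled to inhibitory ones, differed by 0.35 and 0.28 (adjusted p = 0.387 and 0.415). Both were also low in water 17 and 20, Htr2a at 7.21 and 7.31 against 7.61 to 8.78, and Htr1d at 7.23 and 7.15 against 7.38 to 8.48. At an unadjusted p of 0.05 (limma) the effector list held 2 of 35 tested genes and the receptor list 2 of 29, beside 1076 of all 10746 genes.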

How the data were processed

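RNA from 20 rats was measured on 3′-labelled Affymetrix arrays, and per the submitters' processing notes the authors used RMA (background correction, between-array normalization and probe summary). The deposited values are on the log2 scale (array medians 7.93 to 7.98). The software behind RMA and its version are not given in the sources used. A platform table names 1 gene for 20826 of 31099 probe sets. The dimmest 33.3% by mean (below 6.65) and 57 controls were left out, which left 20695 probe sets and 10746 genes.

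Groups were compared with limma 3.58.1 in R 4.3.3 (lmFit, eBayes, two-sided; Benjamini-Hochberg over all probe sets; threshold 0.05), after the fit was tested on simulated data. Each animal has its own number in the titles, and the number of arrays limits the precision. The members, lists, partner pairs and the 3 water animals singled out were chosen with earlier results of these data known. Named genes were members past the threshold, the 6 of smallest p per direction and 29 tested members well known in brain; from each pathway list, the 3 of smallest p. Gng10 was named after its values were seen. Alternatives changed the filter, scaling, variance model, covariates, probe set choice and arrays used.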

Additional observations from a re-analysis of the deposited data

Results flagged for a closer look

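In 60 checks for outlying animals (30 named members in 2 groups), 3 values lay apart from the rest of their group; chance alone marks about 1 group in 20. Gnai2 was 11.92 in water 20, with the nearest other water animal at 11.47. Gng3 was 13.01 in water 20, with the nearest at 12.31. Gnb2 was 11.74 in water 17, with the nearest at 12.11. All 3 values belong to animals whose medium spiny neuron marker means, 12.01 in water 17 and 11.74 in water 20, were below those of the 17 animals other than water 17, 19 and 20. Rgs9, Rgs8, Rgs2 and Gng7, for which 3 water animals were low together, gave no such mark.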

How the results depend on the processing

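No member, effector or receptor on the lists was called under any of 33 alternatives, 20 of which left out 1 array; the lowest adjusted p of a named member was 0.267 (limma, without water 18). The background count of 10 genes and 20 probe sets was 6 and 10 with the dimmer 50% left out, 16 and 38 with array weights, 2 and 7 with the 3′ minus 5′ covariate, and 18 and 46 with the medium spiny neuron covariate. It was 50 probe sets without water 17, 19 and 20, and 42 without ethanol 8 as well, an alternative chosen after seeing the data. Leaving out 1 array gave 7 to 11 genes, 14 to 24 probe sets and a median member difference of 0.01 (without ethanol 7) to 0.04 (without water 16). Of 30 named members the sign changed in 13 without water 17, 19 and 20, in 10 with the medium spiny neuron covariate, in 8 with the 3′ minus 5′ covariate, in 4 with the oligodendrocyte covariate and in 3 with array weights. Quantile normalization turned Gnb1 and Rgs10, both near 0, and centring on the median turned 0. The effector median of -0.01 was 0.01 with the dimmer 50% left out, without water 14, and without water 17, 19 and 20. The inhibitory alpha class median of 0.05 was -0.05 with the 3′ minus 5′ covariate. No paired analysis was possible because the groups share no animal number. Detection above background was not analysed here.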
